A study of Mus musculus with 10 samples.

Results

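Epcam encodes a cell surface adhesion molecule of epithelia, and mouse embryonic stem cells (mESCs), which grow as compact epithelial-like colonies, are known to express it. Its RNA was measured here together with that of 9 further epithelial genes: Cdh1, Cldn4, Cldn6, Cldn7, Krt8, Krt18, Spint1, Spint2 and Esrp1. Epcam was chosen by its measured values, because it was among the genes that had moved with DAXX rescue, with WT H3.3 rescue and between mutant and WT H3.3, and had not moved with mutant H3.3, so its values in those comparisons are given as a description with no p. The other genes were chosen as known genes of epithelia, though also with earlier results of these data known. All 10 were among the 20325 genes of the table and all 10 passed the filter on low counts, which kept 13201 genes.

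The libraries come from 5 mESC lines with 2 biological replicates each, sequenced as polyA RNA. The Daxx-/- line lacks the histone chaperone DAXX, and Daxx-/-;WT is the same knockout carrying a lentiviral FLAG-tagged mouse DAXX transgene under the EF1 promoter. The H3.3 KO line lacks the histone variant H3.3, which DAXX deposits into chromatin. H3.3 KO;WT is that knockout carrying a lentiviral FLAG-HA-tagged WT H3.3 transgene. H3.3 KO;L126A-L130A carries in its place a mutant H3.3 that binds DAXX but is not placed into nucleosomes. In mouse embryonic fibroblasts the paper found far less of this mutant than of WT H3.3 in whole-cell blots. The mutant and WT transgenes may thus differ in amount as well as in placement. The Daxx-/- lines are of strain 129/SvEv and the H3.3 lines of 129 x C57BL/6J. No line is wild type, so every control carries a knockout. Rescued lines were transduced and then selected with puromycin, and the paper's methods do not say whether clones were picked. The cells were grown without feeders on gelatin with LIF and inhibitors of GSK3 and MEK. Comparisons within a strain ask which RNAs change when the missing protein is put back, and whether H3.3 must reach nucleosomes for it. None of the 5 lines is described as carrying an empty vector. A rescue against its knockout therefore also carries transduction and puromycin selection, which cannot be told apart from the returned protein. Comparisons between strains carry strain and derivation along with the genotype, and these cannot be told apart.

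Library totals lay between 15463625 and 21396585 expected counts. Each line's summed level of 9 measured mESC markers (Pou5f1, Nanog and others) was high, between 5620 and 8764 CPM (counts scaled to the library total) over the 10 libraries. H3f3a, one of the genes encoding H3.3, was at 390 to 498 CPM in the Daxx-/- lines and at 2.94 to 11.4 CPM in the H3.3 lines. Daxx RNA was counted at 77.3 and 74.4 CPM in Daxx-/- and at 195 and 208 CPM in Daxx-/-;WT. In the H3.3 lines, where the Daxx gene is not the targeted one, it was at 61.5 to 96.7 CPM, so the Daxx-/- libraries were not below them. H3f3b, the other gene encoding H3.3, was at 525 and 749 CPM in H3.3 KO and at 144 to 371 CPM in the 4 further H3.3 libraries, against 293 and 388 CPM in Daxx-/- and 110 and 85.1 CPM with the DAXX transgene, so it was not lower in the H3.3 lines as a whole. These RNA levels therefore do not check the Daxx and H3f3b part of the labels. Gene-level counts do not show which exons the remaining reads came from. The 2 Daxx-/- libraries stood apart from each other, with 11% of all tested genes differing more than 2-fold between them, against 0.795% to 6.09% in the other lines.

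Epithelial cells are held together by several kinds of contact. At adherens junctions E-cadherin, the product of Cdh1, binds E-cadherin on the neighbouring cell. At tight junctions claudins, among them Cldn4, Cldn6 and Cldn7, seal the space between cells. Keratins 8 and 18, the products of Krt8 and Krt18, pair into the intermediate filaments of simple epithelia. The EPCAM protein binds claudin-7 directly. Spint1 and Spint2 encode HAI-1 and HAI-2, membrane inhibitors of serine proteases such as matriptase (St14), which can cleave EPCAM. Esrp1 encodes an RNA-binding protein that sets the epithelial pattern of alternative splicing. In mESCs Cdh1 and Epcam are expressed as part of the undifferentiated state.

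The genes lie apart in the genome except for one pair. In GRCm38 with GENCODE vM21 annotation, Epcam lies at chr17:87635979-87651129 on the plus strand with 10 exons in its longest coding transcript. Cldn6 is on the same chromosome at chr17:23679249-23682446. Cdh1 lies at chr8:106603351-106670246, Cldn4, a gene of 1 exon, at chr5:134945119-134946934, Cldn7 at chr11:69964779-69967885, Spint1 at chr2:119237362-119249527, Spint2 at chr7:29256323-29281912 and Esrp1 at chr4:11331933-11386783. Krt8 (chr15:101996698-102004482, minus strand) and Krt18 (chr15:102028180-102032027, plus strand) are neighbours with 23698 bases between them. Long non-coding genes overlap Krt8 (Gm36026) and Esrp1 (Gm26663) on the opposite strand. The library kit is not stated to keep strand, so reads of each overlapping pair cannot be told apart, and Krt8 also has a processed pseudogene, Krt8-ps, so its counts are less certain.

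Promoter windows of 300 bases, 250 before and 50 after the annotated start (RefSeq, GRCm38.p6), were at hand for 8 of the 10 genes, all but Cdh1 and Esrp1. They were searched on both strands for CACCTG, whose reverse complement is CAGGTG, a sequence known to be bound by repressors of the Snail and Zeb families in epithelial genes. Of all 32851 windows, 20.2% held it. It was found in 7 of the 9 windows of these genes, covering 7 of the 8 genes. Cldn7 was covered only by a window that lies inside the gene. The windows of Epcam and Cldn7 are shown because both genes were lower in both H3.3 KO;WT libraries than in both H3.3 KO libraries, that of Cldn4 as a further claudin and that of Spint1 as the gene with no match. Cldn4, Spint2, Cdh1 and Esrp1 were also lower in this way, so this does not set Epcam and Cldn7 apart. Each is printed 5′ to 3′ on the strand of its gene, with the CACCTG or CAGGTG letters in capitals.
Epcam, chr17:87635729-87636028, plus strand: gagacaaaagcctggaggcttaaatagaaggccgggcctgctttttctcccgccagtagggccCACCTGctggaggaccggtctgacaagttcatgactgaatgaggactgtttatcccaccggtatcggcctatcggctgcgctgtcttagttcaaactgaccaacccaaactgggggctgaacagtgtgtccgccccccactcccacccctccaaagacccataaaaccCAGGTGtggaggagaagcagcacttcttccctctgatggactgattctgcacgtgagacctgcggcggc
Cldn7, chr11:69965171-69965470, plus strand: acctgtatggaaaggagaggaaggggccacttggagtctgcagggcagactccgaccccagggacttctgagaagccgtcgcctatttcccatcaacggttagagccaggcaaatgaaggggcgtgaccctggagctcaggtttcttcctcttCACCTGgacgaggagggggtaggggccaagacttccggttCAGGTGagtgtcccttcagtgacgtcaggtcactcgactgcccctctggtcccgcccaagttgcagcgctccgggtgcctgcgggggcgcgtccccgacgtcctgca
Cldn4, chr5:134946885-134947184, minus strand: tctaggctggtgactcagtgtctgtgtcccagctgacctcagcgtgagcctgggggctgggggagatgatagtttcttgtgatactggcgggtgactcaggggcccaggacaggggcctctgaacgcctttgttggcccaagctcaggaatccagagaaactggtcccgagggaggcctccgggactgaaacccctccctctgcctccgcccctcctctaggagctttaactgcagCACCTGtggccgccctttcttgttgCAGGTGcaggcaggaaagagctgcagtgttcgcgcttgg
Spint1, chr2:119237110-119237409, plus strand: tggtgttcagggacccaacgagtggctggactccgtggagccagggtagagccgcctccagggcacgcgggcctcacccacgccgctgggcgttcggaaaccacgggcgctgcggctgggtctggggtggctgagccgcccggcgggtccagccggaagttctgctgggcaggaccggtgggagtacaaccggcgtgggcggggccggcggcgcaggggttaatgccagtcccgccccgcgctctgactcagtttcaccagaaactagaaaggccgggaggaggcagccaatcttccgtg
In the Epcam window the 2 matches begin 187 and 19 bases before the start. In the printed Cldn7 window they begin 97 and 57 bases before a start that lies inside the gene as annotated above. A further Cldn7 window, at chr11:69964529-69964828, surrounds the gene start given above (69964779) and held none. The Cldn4 matches begin 14 bases before and 11 after the start. Spint2 had 3 matches, Cldn6 2, and Krt8 and Krt18 1 each. The Spint1 window was rich in CpG, with 28 against a median of 7 over all windows, and Spint2 had 26, Cldn7 17, Krt18 17 and Epcam 11. These are matches of letters only, and binding was not measured.

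Per kilobase of the longest coding transcript, the median level over the 10 libraries was highest for Spint2 (101 CPM per kb) and Cdh1 (93.0 CPM per kb), followed by Spint1 (56.7), Cldn4 (51.7) and Epcam (47.8). Krt8 (11.4), Cldn7 (10.7), Krt18 (6.15), Cldn6 (4.60) and Esrp1 (3.77 CPM per kb) were lower. The depth was ample for all of them: the smallest expected count of any of the 10 genes in any library was 65, for Cldn7 in one Daxx-/-;WT library.

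**Figure D1:**
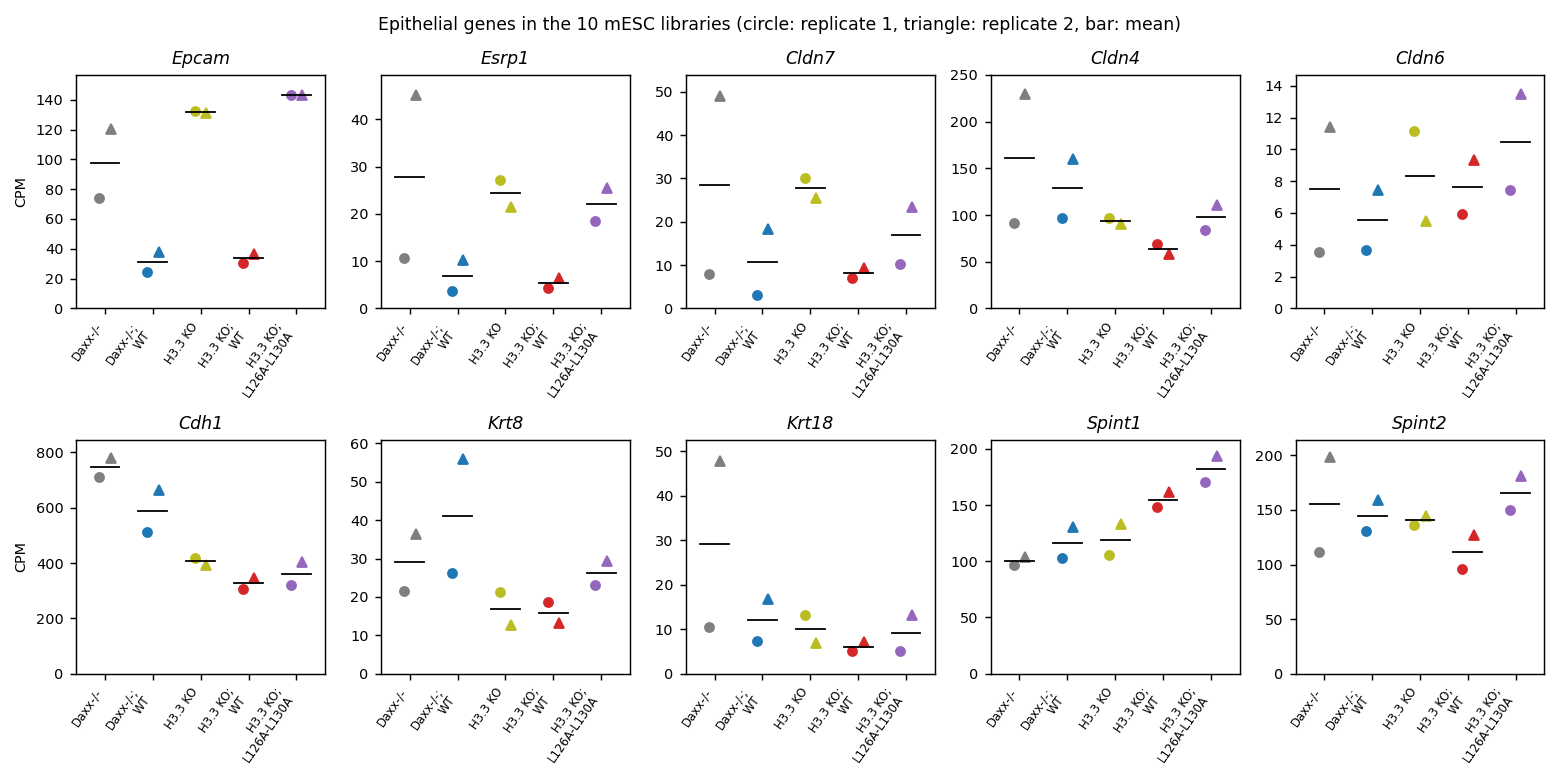
Level of each of the 10 genes in CPM (vertical axes, each starting at 0) in the 5 lines (horizontal axes), with a circle for replicate 1, a triangle for replicate 2 and a bar for their mean. Epcam is at 24.7 to 37.5 CPM in Daxx-/-;WT and H3.3 KO;WT and at 74.1 CPM or more in every other library, and Esrp1 is likewise lowest in those 4 libraries, at 3.74 to 10.1 CPM.

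Epcam RNA was low in the lines carrying the DAXX or WT H3.3 transgene and high in both knockouts and with mutant H3.3. In Daxx-/- it was 74.1 and 120.7 CPM, and in Daxx-/-;WT it was 24.7 and 37.5 CPM. In H3.3 KO it was 132.5 and 131.5 CPM, in H3.3 KO;WT 30.6 and 36.8 CPM, and in H3.3 KO;L126A-L130A 143.3 and 143.5 CPM. The 4 libraries with a WT transgene lay below all 6 others, with no overlap. In order of the mean, the lines were H3.3 KO;L126A-L130A (143 ± 0.148 CPM, SD, n = 2), H3.3 KO (132 ± 0.71), Daxx-/- (97.4 ± 33.0), H3.3 KO;WT (33.7 ± 4.39) and Daxx-/-;WT (31.1 ± 9.06). The 2 lowest lines overlapped. Bulk counts cannot separate fewer cells with Epcam RNA from less Epcam RNA in each cell.

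With DAXX rescue, the Epcam difference on the log2 fold change scale was −1.64 (SE 0.224, 95% interval −2.15 to −1.13). With WT H3.3 rescue it was −1.94 (SE 0.226, −2.45 to −1.43). With L126A-L130A rescue it was 0.18 (SE 0.217, −0.31 to 0.66), and mutant against WT H3.3 it was 2.12 (SE 0.228, 1.60 to 2.63). The WT and mutant rescues share the same H3.3 KO libraries, so these values are not independent of each other. Leaving out single libraries gave −1.92 to −1.33 for DAXX rescue, −2.04 to −1.84 for WT H3.3 rescue and 2.02 to 2.22 for mutant against WT H3.3.

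The differences between strains use the same libraries as the comparisons that chose Epcam, so they too are a description with no p. H3.3 KO against Daxx-/- gave a log2 fold change of 0.37 (95% interval −0.12 to 0.86), with 0.11 without Daxx-/- replicate 1 and 0.69 without replicate 2. H3.3 KO;WT against Daxx-/-;WT gave 0.07 (−0.44 to 0.57), with −0.17 without Daxx-/-;WT replicate 1 and 0.34 without replicate 2. The DAXX effect minus the WT H3.3 effect, built from 2 of the comparisons that chose Epcam, was 0.30 (−0.40 to 1.00).

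Esrp1, the splicing regulator, had the values nearest to those of Epcam. Its levels were 10.7 and 45.0 CPM in Daxx-/-, 3.74 and 10.1 CPM in Daxx-/-;WT, 27.1 and 21.5 CPM in H3.3 KO, 4.21 and 6.44 CPM in H3.3 KO;WT, and 18.4 and 25.5 CPM in H3.3 KO;L126A-L130A. Both H3.3 KO;WT libraries lay below the 4 other H3.3 libraries, and both Daxx-/-;WT libraries lay below both Daxx-/- libraries, though by little for one pair. The log2 fold change was −1.99 with DAXX rescue (SE 0.609, −3.37 to −0.62, adjusted p = 0.118). It was −2.16 with WT H3.3 rescue (SE 0.62, −3.56 to −0.76, adjusted p = 0.206). With L126A-L130A rescue it was −0.10 (SE 0.581, −1.41 to 1.21, adjusted p = 0.952), and mutant against WT H3.3 it was 2.06 (SE 0.619, 0.66 to 3.46, adjusted p = 0.203). None of these passed the threshold over all genes in edgeR's quasi-likelihood test. DESeq2 called Esrp1 in 3 of them, with adjusted p = 0.0113 for DAXX rescue, 0.0124 for WT H3.3 rescue and 0.0142 for mutant against WT H3.3. The DAXX value was −2.66 without Daxx-/- replicate 1 (adjusted p = 0.0200) and −0.72 without Daxx-/- replicate 2 (adjusted p = 0.508), so its size rests on that line's libraries.

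Cldn7, the claudin that EPCAM binds, had Epcam's pattern in the H3.3 KO and H3.3 KO;WT libraries, with a wide spread elsewhere. It was at 30.1 and 25.5 CPM in H3.3 KO, 6.92 and 9.33 CPM with WT H3.3, and 10.2 and 23.4 CPM with mutant H3.3. In the Daxx-/- lines it was at 7.84 and 49.1 CPM without the transgene and at 3.04 and 18.4 CPM with it. These ranges overlapped for DAXX rescue and did not for WT H3.3 rescue. The log2 fold change was −1.40 with DAXX rescue (−3.34 to 0.53, adjusted p = 0.363) and −1.74 with WT H3.3 rescue (−3.71 to 0.22, adjusted p = 0.440). When the WT H3.3 comparison was fitted on its own 4 libraries it passed, at −1.76 (adjusted p = 0.00557). Without Daxx-/- replicate 2 the DAXX value was 0.35, so its sign rests on that library.

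The other 2 claudins did not change past the threshold within either strain. Cldn4 was at 91.2 and 230 CPM in Daxx-/-, 96.9 and 160 in the DAXX-rescued line, 96.4 and 90.6 in H3.3 KO, 69.1 and 58.4 with WT H3.3 and 84.3 and 110 CPM with mutant H3.3. Cldn6, a claudin typical of early embryonic epithelia, was at 3.53 to 13.5 CPM in all libraries, and the ranges of all 5 lines overlapped. Cldn4 changed by −0.52 with WT H3.3 on the log2 scale (−1.32 to 0.28, adjusted p = 0.585), which leaves room for a 2-fold fall.

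**Figure D2:**
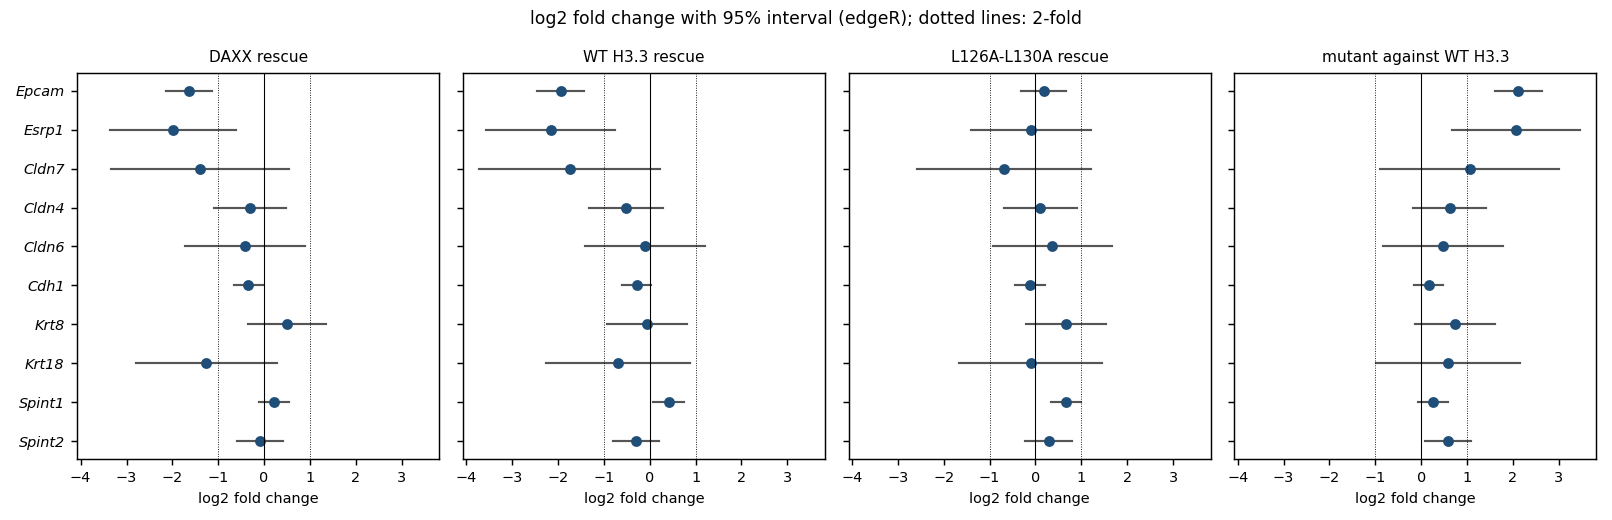
Log2 fold change (horizontal axis) of each gene with its 95% interval from edgeR, for the 3 rescues and for mutant against WT H3.3, with dotted lines at 2-fold. Epcam and Esrp1 lie left of the 2-fold line with DAXX and with WT H3.3 (−1.64 to −2.16), near 0 with L126A-L130A H3.3, and at 2.12 and 2.06 for mutant against WT H3.3, while Cdh1, Spint1 and Spint2 lie within 2-fold in all 4.

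Cdh1, the E-cadherin gene and by CPM the most abundant of the 10, did not follow Epcam. It was at 712 and 782 CPM in Daxx-/-, 513 and 666 with the DAXX transgene, 420 and 394 in H3.3 KO, 307 and 347 with WT H3.3 and 320 and 404 CPM with mutant H3.3. In each strain the WT-rescued libraries lay below the knockout libraries. The log2 fold change was −0.34 with DAXX rescue (−0.66 to −0.02, adjusted p = 0.204) and −0.28 with WT H3.3 rescue (−0.60 to 0.04, adjusted p = 0.438), and both intervals leave out a 2-fold change.

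The keratin genes were low and variable. Krt8 was at 21.6 and 36.3 CPM in Daxx-/-, 26.3 and 55.9 with the DAXX transgene, 21.2 and 12.8 in H3.3 KO, 18.7 and 13.1 with WT H3.3 and 23.0 and 29.2 CPM with mutant H3.3. Krt18 was at 48.0 CPM in one Daxx-/- library and between 5.04 and 16.8 CPM in the other 9. The 2 genes, whose products form one filament, had DAXX rescue values of opposite sign, at 0.50 for Krt8 (−0.35 to 1.36, adjusted p = 0.458) and −1.26 for Krt18 (−2.80 to 0.28, adjusted p = 0.313). Without Daxx-/- replicate 2 the Krt18 value was 0.12.

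The protease inhibitor genes moved little. Spint1 was at 96.6 and 104 CPM in Daxx-/-, 103 and 130 with the DAXX transgene, 105 and 133 in H3.3 KO, 148 and 161 with WT H3.3 and 171 and 193 CPM with mutant H3.3. Both kinds of H3.3 transgene thus went with levels above those of the H3.3 KO, without overlap. The log2 difference was 0.41 with WT H3.3 (0.07 to 0.74, adjusted p = 0.285) and 0.66 with the mutant (SE 0.149, 0.33 to 1.00, adjusted p = 0.0715), and neither was called. Spint2 lay between 96.1 and 199 CPM, and its changes within a strain were between −0.30 and 0.59 on the log2 scale. The largest, mutant against WT H3.3, was 0.59 (0.08 to 1.09, adjusted p = 0.328).

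Called means a Benjamini-Hochberg adjusted p under 0.05 over all 13201 genes tested and a change of at least 2-fold. With DAXX rescue 1 of the 10 genes was called, Epcam, and 1.08% of all genes were (143 genes). With WT H3.3 rescue 1 of 10 was called, again Epcam, against 0.25% of all genes (33 genes). Mutant against WT H3.3 also gave 1 of 10, Epcam, against 0.515% (68 genes). Epcam's calls follow from how it was chosen and nothing is read from them. They also need the replicates: the DAXX rescue call was lost without either Daxx-/-;WT library (−1.41 without replicate 1, −1.92 without replicate 2) or when that comparison was fitted alone. The WT H3.3 call was lost without any of its 4 libraries (−2.04 to −1.84). The mutant against WT H3.3 call was lost without H3.3 KO;WT replicate 1 (2.02) or 2 (2.22) or H3.3 KO;L126A-L130A replicate 1 (2.06). Leaving out a library leaves its line with 1, assumed to vary like the rest.

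With L126A-L130A rescue 0 of the 10 genes were called by edgeR, DESeq2 or limma, against 0.788% of all genes by edgeR (104 genes), and 1 of the 10, Spint1, had an unadjusted p under 0.05, as 16.9% of all genes did. The DAXX effect and the WT H3.3 effect were also compared with each other. For that difference 0 of the 10 genes were called by any of the 3 tools and 0 had an unadjusted p under 0.05, against 0.0455% of all genes called (6 genes) and 13.9% with such a p. The difference was between −0.56 and 0.56 for all 10 genes, with wide intervals for Cldn7 (−2.36 to 3.05) and Esrp1 (−1.73 to 2.08).

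As a group the 10 genes had more negative than positive changes with each WT transgene. With DAXX rescue 8 of 10 log2 fold changes were negative, with a median of −0.38 against −0.02 over all genes. With WT H3.3 rescue 9 of 10 were negative, with a median of −0.41 against 0.02. With L126A-L130A rescue 6 of 10 were positive and the median was 0.14 against 0.03, and mutant against WT H3.3 all 10 were positive with a median of 0.61 against 0.00. Epcam is among the 10 and was chosen from these comparisons, so part of each count and median was set beforehand. With DAXX rescue the values of Cldn4, Cldn6, Cldn7, Krt18 and Spint2 turned positive without Daxx-/- replicate 2. With WT H3.3 rescue Cldn6 (0.50) and Krt8 (0.36) turned positive without H3.3 KO replicate 1. For mutant against WT H3.3, Krt18 turned negative (−0.19) without H3.3 KO;L126A-L130A replicate 2. Most of these single values did not pass a test, and the WT and mutant rescues share control libraries.

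Between the strains, Cdh1 was lower in the H3.3 lines, and Krt8 was lower in the rescued H3.3 line than in the rescued Daxx line. H3.3 KO against Daxx-/- called 0 of the 10 genes, while 11.7% of all genes were called (1543 genes). At an unadjusted p under 0.05 there were 3 of the 10 and 38.0% of all genes, limma also called 0, and DESeq2 called 1, Krt18 (−1.58, adjusted p = 0.0492). Cdh1 had a log2 fold change of −0.96 (SE 0.143, −1.28 to −0.64, adjusted p = 0.00303), past the p threshold and just under 2-fold, and −1.01 without H3.3 KO replicate 1. Without Daxx-/- replicate 1, Cldn4 (−1.32, adjusted p = 0.00747) and Krt18 (−2.28, adjusted p = 0.0208) passed.

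Of the rescued lines, H3.3 KO;WT against Daxx-/-;WT called 1 of the 10 genes, Krt8, against 8.45% of all genes (1116 genes). Krt8 was at 18.7 and 13.1 CPM against 26.3 and 55.9 CPM, without overlap. Its log2 fold change was −1.40 (SE 0.389, −2.28 to −0.52, adjusted p = 0.0379). The call was lost without Daxx-/-;WT replicate 2 (−0.82, adjusted p = 0.203) and without H3.3 KO;WT replicate 1 (−1.72, adjusted p = 0.102) or 2 (−1.14, adjusted p = 0.227). Cdh1 changed by −0.90 (SE 0.143, adjusted p = 0.00531) and reached −1.04 without Daxx-/-;WT replicate 1. Cldn4 was at −1.05 (−1.86 to −0.25, adjusted p = 0.0702), and passed with DESeq2 (adjusted p = 0.0162), with no filter on low counts (adjusted p = 0.0497) and in a fit of the 4 libraries alone (adjusted p = 0.00856). A share of 1 in 10 called is near the share of all genes in this comparison.

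**Figure D3:**
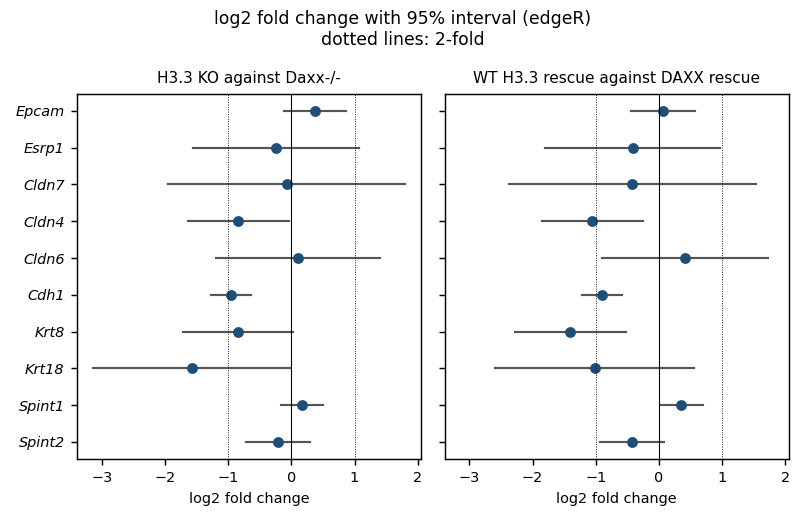
Log2 fold change (horizontal axis) with its 95% interval from edgeR for the 10 genes between the knockout lines (left) and between the rescued lines (right), H3.3 minus Daxx in each, with dotted lines at 2-fold. Epcam sits at 0.37 and 0.07, while Cdh1 sits at −0.96 and −0.90 with intervals that leave out 0.

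The 2 libraries of a line often differed for these genes as a group. In Daxx-/-, replicate 2 was higher than replicate 1 for all 10 genes, with a median difference of 1.08 on the log2(CPM + 1) scale, while 57.7% of all tested genes were higher in it and the median over all genes was 0.10. In that line 5 of the 10 genes differed more than 2-fold, up to 6.26-fold for Cldn7 and 4.60-fold for Krt18. In Daxx-/-;WT, replicate 2 was also higher for all 10, with a median of 0.79 and 4 genes over 2-fold, against 60.1% of all genes higher and 2.60% over 2-fold. In H3.3 KO;L126A-L130A it was again higher for all 10, with a smaller median of 0.36. In H3.3 KO;WT it was higher for 8 and in H3.3 KO for 2 of the 10. The labels do not say that a replicate number marks a shared batch or day.

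The summed levels of markers of other cell types were also higher in replicate 2 of Daxx-/-, as was that of the mESC markers (6499 and 7246 CPM). The sum of 7 measured trophectoderm markers was 20.8 and 35.7 CPM in the 2 Daxx-/- libraries and 12.9 to 29.5 CPM in the other lines, with Cdx2, Elf5 and Gata3 under 1 CPM in every library. Of these markers Eomes went the other way in Daxx-/-, at 16.7 and 12.1 CPM, while Krt7 was at 1.25 and 11.9 CPM and Ascl2 at 2.44 and 9.79 CPM. The 8 primitive endoderm markers summed to 7.99 and 23.8 CPM there and to 6.17 to 14.3 CPM elsewhere, with Sox7, Foxa2 and Cubn under 1 CPM throughout. The 8 fibroblast markers summed to 27.6 and 51.7 CPM there and to 5.43 to 23.5 CPM elsewhere, with Col1a2, Dcn, Lum, Postn and Acta2 under 1 CPM throughout. In Daxx-/-;WT and H3.3 KO;L126A-L130A the sums of all these lists were likewise higher in replicate 2. The part of these markers in the differences was not tested. Without the higher library, Daxx-/- replicate 2, the DAXX rescue value was −1.33 for Epcam and positive for Cldn4 (0.42), Cldn6 (0.57), Cldn7 (0.35), Krt18 (0.12) and Spint2 (0.31), so only Epcam, Esrp1 and Cdh1 kept a negative value among the 8 that had one.

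**Figure D4:**
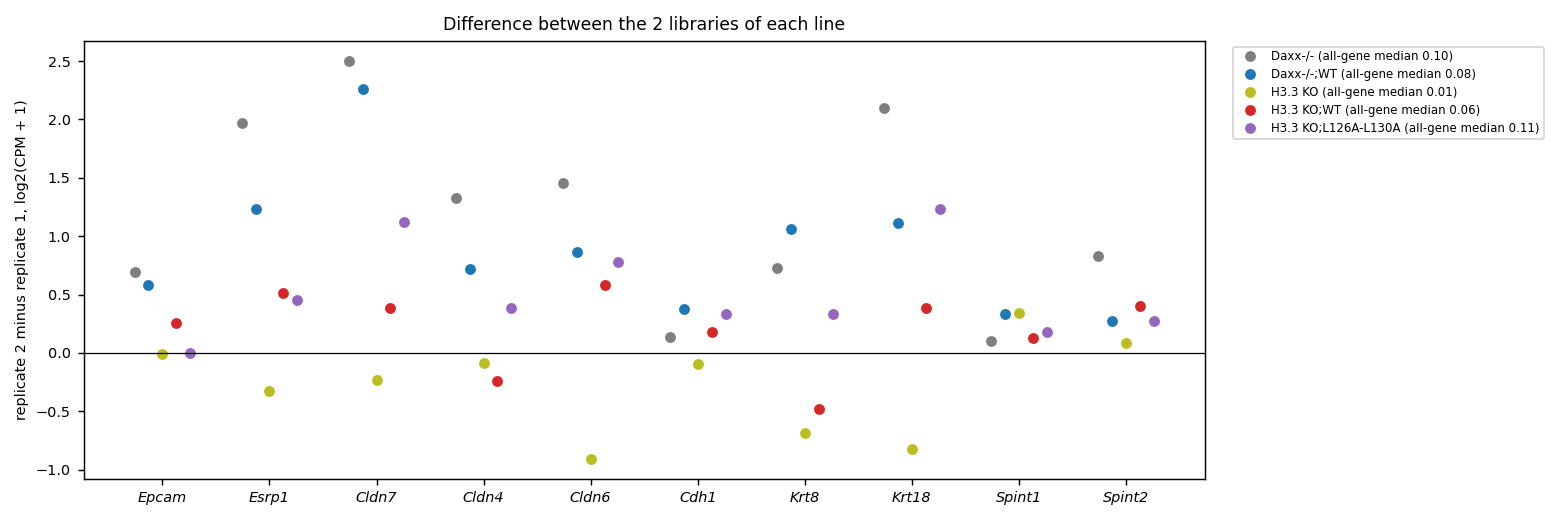
Difference between the 2 libraries of each line (replicate 2 minus replicate 1, log2(CPM + 1), vertical axis) for the 10 genes (horizontal axis), one colour for each line, with the median over all tested genes in the legend. All 10 points of Daxx-/- lie above 0, up to 2.50 for Cldn7, while Epcam lies between −0.01 and 0.70 in all 5 lines.

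The pattern of Epcam over the 10 libraries was compared with that of every tested gene by Pearson's r of log2(CPM + 1), as a description, since the points share lines and depth. Of the other 9 genes, Esrp1 was most like it (r = 0.917, n = 10), which placed it at rank 12 among all other tested genes. Cldn7 (0.717), Spint2 (0.554) and Cldn6 (0.491) followed, and Krt18 (0.293), Cldn4 (0.272), Spint1 (0.135), Cdh1 (−0.01) and Krt8 (−0.06) did not track it. A different group ran together apart from Epcam: Cldn4 with Krt18 (0.900), Krt8 (0.801) and Cdh1 (0.778). Cldn7 and Esrp1 were also alike (0.903), and Cdh1 and Spint1 ran in opposite directions (−0.70).

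The 5 genes outside the group most like Epcam were Sccpdh (r = 0.962), Rtn1 (0.952), Bnip1 (0.952), Scp2 (0.948) and Apcdd1 (0.946). Apcdd1, which encodes a membrane inhibitor of Wnt signalling, was at 21.3 and 22.2 CPM in Daxx-/-, 6.59 and 6.35 with the DAXX transgene, 32.4 and 54.6 in H3.3 KO, 9.68 and 10.3 with WT H3.3 and 48.0 and 38.0 CPM with mutant H3.3. Scp2, which encodes a sterol carrier protein of peroxisomes, was at 99.5 and 115 CPM in Daxx-/- and 60.0 and 62.8 CPM in Daxx-/-;WT. In the H3.3 lines Scp2 was at 136 and 129 CPM in the knockout, 79.6 and 86.1 CPM with WT H3.3 and 125 and 140 CPM with the mutant. For each of these genes, as for Epcam, the 4 libraries with a WT transgene were the lowest of the 10. They were picked for this likeness, so it carries no test.

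**Figure D5:**
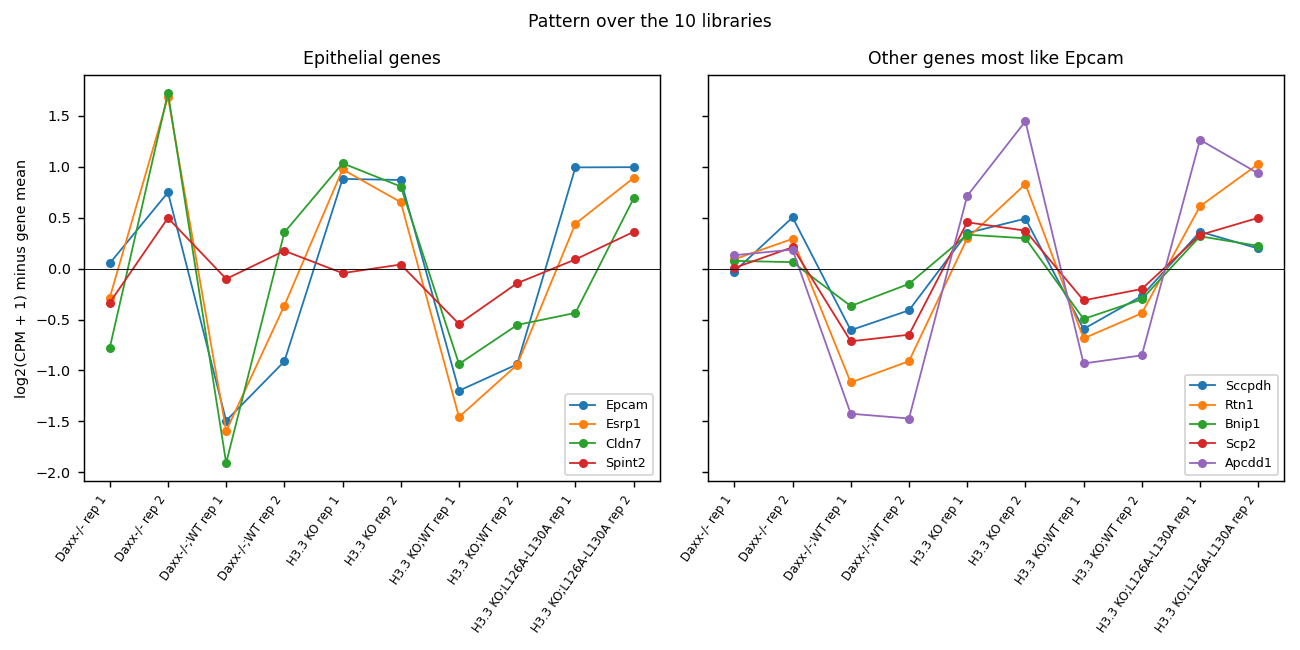
Log2(CPM + 1) minus each gene's mean (vertical axis) over the 10 libraries (horizontal axis) for Epcam, Esrp1, Cldn7 and Spint2 (left) and for the 5 other genes most like Epcam (right). Epcam and Esrp1 are below their mean in the 4 WT-rescued libraries, Spint2 varies less and Cldn7 is above its mean in Daxx-/-;WT replicate 2.

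Further genes of the same structures were read from lists of junction, keratin, protease and regulator genes. Of 14 other adherens junction genes, 20 other tight junction genes, 13 other desmosome and keratin genes, 9 other surface protease and inhibitor genes and 17 other epithelial regulators that passed the filter, 0 were called with DAXX rescue, with WT H3.3 rescue or with L126A-L130A rescue by edgeR. Of all genes 1.08%, 0.25% and 0.788% were called, so 0 among this few genes is near those shares. At an unadjusted p under 0.05 there were 3, 7, 3, 2 and 5 of them, in that order, with DAXX rescue, where 21.8% of all genes had such a p, and 4, 3, 3, 2 and 4 with WT H3.3 rescue, where 13.3% did. The 17 regulators, which include the Grhl, Ovol and Klf transcription factors, had 15 negative values with DAXX rescue (median −0.47) and 12 with WT H3.3 rescue (median −0.37), and 15 positive values for mutant against WT H3.3 (median 0.24). The medians over all genes were −0.02, 0.02 and 0.00. With DAXX rescue the medians of the desmosome and keratin (−0.59), surface protease and inhibitor (−0.58) and tight junction (−0.54) genes were lower still. That of the adherens junction genes was −0.09. How far these DAXX rescue medians and the 15 negative regulator values rest on Daxx-/- replicate 2 was not tested. Lsr, at 10.3 and 36.3 CPM in Daxx-/- and 12.7 and 23.3 CPM in Daxx-/-;WT, was lower with DAXX only against that replicate. Ocln, at 7.52 and 13.5 CPM against 1.73 and 3.34 CPM, was lower against both Daxx-/- libraries.

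Mutant against WT H3.3 called 1 gene of these lists, Cxadr, a tight junction-associated adhesion receptor, against 0.515% of all genes. Cxadr was at 60.4 and 45.6 CPM with the mutant and 26.3 and 24.3 CPM with WT H3.3, and its log2 fold change was 1.10 (SE 0.189, 0.67 to 1.52, adjusted p = 0.0486). The call was lost without H3.3 KO;WT replicate 1 (1.19) or 2 (1.01), without H3.3 KO;L126A-L130A replicate 1 (0.81) and when the comparison was fitted alone. Unlike Epcam, Cxadr was higher with the DAXX transgene, at 46.6 and 49.5 CPM against 30.9 and 32.6 CPM, a log2 difference of 0.60 that did not pass (adjusted p = 0.121).

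Between the knockout lines, where 11.7% of all genes were called, the genes of these lists that were called included the protease-activated receptor gene F2rl1 and Klf5, both higher in H3.3 KO. Dsp, the desmosomal plakin gene, Tmem30b and Cldn5 were also called, but each lost its call without any one of 3 of the 4 libraries. Without single libraries the log2 fold change was 1.15 to 2.01 for Dsp, 1.72 to 3.45 for Tmem30b and −3.06 to −1.25 for Cldn5, and the call remained only without Daxx-/- replicate 2 for Dsp and Tmem30b and only without Daxx-/- replicate 1 for Cldn5. F2rl1 was at 68.4 and 83.4 CPM against 32.1 and 28.0 CPM (1.24, SE 0.167, adjusted p = 0.00206), and stayed called without any one library. Klf5 was at 129 and 154 CPM against 60.1 and 67.7 CPM (1.06, SE 0.141, adjusted p = 0.00193), and without H3.3 KO replicate 2 it was at 0.94.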

How the data were processed

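PolyA RNA of 5 mESC lines, 2 replicates each, was sequenced after NEBNext Ultra library preparation. Per the labels' processing notes and the study's methods, the authors aligned reads with Bowtie to mm9 and estimated expression with RSEM at default settings. Versions and annotation are not given in the sources used here. The deposited values were expected counts per gene, although they are named TPM: totals were 15463625 to 21396585 per library and 61.4% to 67.6% of values were whole. No column was left unmatched to a sample.

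Expected counts were rounded and tested with edgeR 4.0.16 (R 4.3.3) by quasi-likelihood, 1 fit of all 10 libraries with the line as the only term, median-of-ratios factors (0.936 to 1.04), a floor of 1 CPM reached by 2 or more libraries for a gene to enter, and Benjamini-Hochberg adjustment over 13201 genes (common dispersion 0.0522, 5 residual degrees of freedom). The fit was checked on simulated data. EBSeq, the study's tool, was not run. DESeq2 1.42.0, limma 3.58.1 on log2(CPM + 1), TMM factors, other filters, a replicate block, fits of single comparisons, no fold threshold and leaving out each library were tried as alternatives. CPM used the library totals. Same-numbered libraries deviated together in every pair of lines without H3.3 KO (correlations 0.25 to 0.56), and less so with H3.3 KO (−0.05 to 0.28). The correlation was over 0.1 in 7 of 10 pairs of lines. A shared replicate structure in the lines other than H3.3 KO is thus possible. The labels do not pair the numbers and H3.3 KO did not follow, so the block is an alternative only, and it changed the calls for DAXX rescue (621 of all genes against 143). Replicates are labelled biological, and no library repeated another.

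The genes and lists were chosen with earlier results of these data known. Outside the 10 genes, the genes named were called list genes, the 5 most like Epcam, and Daxx, H3f3a and H3f3b as label checks. Tfap2c, Tfcp2l1 and Tfap2a were not analysed here. Gene positions came from GENCODE vM21 (GRCm38), matched by symbol, and promoters from RefSeq (GRCm38.p6), not from mm9. A called list gene is not reported here.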

Additional observations from a re-analysis of the deposited data

How the results depend on the processing

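Of 70 fold changes (10 genes in 7 comparisons), 478 of 490 values under other settings kept their direction and side of the threshold or moved by less than their SE. With a library left out, 281 of 320 did, 12 lost a call, 5 gained one and 22 uncalled values changed sign with a move of at least their SE. No called value changed sign. With 2 libraries a line, the spread rests on few samples. With DESeq2 the genes called of the 10 were 2 for DAXX rescue, 2 for WT H3.3 rescue, 2 for mutant against WT H3.3, 1 for H3.3 KO against Daxx-/- and 2 for the rescued lines. Of all genes they were 532, 213, 324, 1714 and 1382 in the same order, 445 for L126A-L130A rescue and 262 for the difference of effects. limma called 240 genes for DAXX rescue, 55 for WT H3.3 rescue, 173 for L126A-L130A rescue and 3 for the difference of effects. With no filter these were 233, 53 and 203, with 125 for mutant against WT H3.3, and 2 of the 10 genes and 1181 of all genes for the rescued lines. With the replicate block, 2 of the 10 genes were called for DAXX rescue (Epcam and Esrp1) and 2 for the rescued lines (Krt8 and Cldn4), where 1569 of all genes were. It called 621, 105, 461, 234 and 144 of all genes for DAXX, WT H3.3 and L126A-L130A rescue, mutant against WT H3.3 and the difference of effects. Fitted alone, 0 of the 10 were called for DAXX rescue, 3 for WT H3.3 rescue and 2 for the rescued lines, where 1630 of all genes were. Such fits called 1, 330, 29, 18 and 859 of all genes for DAXX, WT H3.3 and L126A-L130A rescue, mutant against WT H3.3 and H3.3 KO against Daxx-/-. With no fold threshold 1 of the 10 (Cdh1) and 3130 genes passed for H3.3 KO against Daxx-/-, and 2 of the 10 (Cdh1 and Krt8) and 2336 genes for the rescued lines.

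With each library left out in turn, the genes called of the 10 were 0 to 2 for DAXX rescue, 0 to 0 for WT H3.3 rescue, 0 to 0 for L126A-L130A rescue, 0 to 1 for mutant against WT H3.3, 0 to 2 for H3.3 KO against Daxx-/-, 0 to 2 for the rescued lines and 0 to 0 for the difference of effects. Over all genes they were 1 to 1074, 2 to 3, 2 to 142, 0 to 64, 706 to 2097, 364 to 801 and 1 to 187, in the same order. The cause of these moves was not tested beyond the smaller number of libraries.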

Other observations

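Between the rescued lines, further epithelial and stem cell genes differed beside Krt8. Klf5, a transcription factor of stem cells and epithelia, was at 121 and 121 CPM in H3.3 KO;WT and 38.0 and 44.9 CPM in Daxx-/-;WT (log2 fold change 1.49, SE 0.143, adjusted p = 0.000708 in edgeR's quasi-likelihood test). Klf4, a related factor, was at 389 and 393 CPM against 136 and 167 CPM (1.31, SE 0.137, adjusted p = 0.00124). Both calls remained under all 7 other settings and without any one library. Of 13 tested genes of the desmosome and keratin list 3 were called higher in H3.3 KO;WT (Dsp, Dsg2 and Perp) and 1 lower (Krt10), against 8.45% of all genes called in this comparison. Perp was not called without any one of the 4 libraries (1.60 to 2.37), Dsp without Daxx-/-;WT replicate 1 or either H3.3 KO;WT library (1.49 to 2.63), nor Dsg2 without replicate 1 of either line (0.92 to 1.16). Krt10 was at 0.755 and 0.481 CPM against 3.16 and 4.30 CPM (−2.63, adjusted p = 0.00670), and without H3.3 KO;WT replicate 2 it was at −2.31 and not called.

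Of 10 mesenchymal genes that passed the filter, 4 were called between the rescued lines, against 8.45% of all genes, 2 in each direction: Snai1 (−1.66, adjusted p = 0.0382) and Vim (−2.17, adjusted p = 0.0383) were lower in H3.3 KO;WT, and Col1a1 (2.42, adjusted p = 0.0181) and Sparc (1.00, adjusted p = 0.00848) were higher. Vim, the vimentin gene, was at 121 and 87.6 CPM in H3.3 KO;WT and 583 and 317 CPM in Daxx-/-;WT, and also at 485 and 201 CPM in H3.3 KO;L126A-L130A. With any of the 4 libraries left out, Snai1 (−1.71 to −1.61) and Vim (−2.58 to −1.61) were not called. Col1a1 was not called without Daxx-/-;WT replicate 1 or either H3.3 KO;WT library (2.01 to 2.96 over the 4 libraries), nor Sparc without Daxx-/-;WT replicate 1 or H3.3 KO;WT replicate 2 (0.84 to 1.19). Strain and derivation differ along with these lines and cannot be told apart from the genotype.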
